A study of Arabidopsis thaliana with 12 samples.

Results

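In dark-grown Arabidopsis thaliana seedlings 149 of 22746 gene probe sets had a higher signal in both untreated auxin-response mutants, axr2 and msg2, than in untreated wild type. They were chosen by their group means of log2 signal. A probe set was taken if its mean in untreated axr2 and in untreated msg2 lay at least 0.8 above untreated wild type and reached at least 7 in both mutants. Its mean in wild type grown with 24-epibrassinolide (24-eBL), a brassinosteroid, also had to lie less than 0.8 from untreated wild type. Plastid-encoded genes, BCAT4, IAA29, Prx37 and the XTH, EXPA, TET, SWEET and UGT genes were left out, which removed 1 probe set, that of the plastid gene rps3. Of the 149, 71 were paired with exactly 1 gene, 1 with several genes and 77 with no gene in the probe table used, so the exclusions by name could not be applied to those 77. The 71 single-gene probe sets stood for 71 different genes.

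Total RNA of seedlings in the Columbia background was hybridised to 12 ATH1 arrays from Affymetrix, 2 for each of 6 groups, which the submitters called biological replicates. The groups were axr2 with 100 nM 24-eBL (axr2_BR) and axr2 without it (axr2_mock), msg2 with 100 nM 24-eBL (msg2_BR) and without it (msg2_mock), and wild type with 100 nM 24-eBL (WT_BR) and without it (WT_mock). After 3 days in the cold and 8 h of light, all seedlings grew for 4 days in darkness at 22 °C on medium with 2% sucrose, so the 24-eBL was present throughout growth and not as a short pulse. The labels name seedlings and no dissected organ, so that more cells of a type and more RNA per cell cannot be told apart in these signals.

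As background, auxin acts by binding TIR1/AFB receptors, which marks Aux/IAA proteins for destruction and frees ARF transcription factors to activate genes. In axr2 and msg2 a dominant mutation in the degron of an Aux/IAA protein makes that repressor stable, so auxin responses are weakened, and the stretching of the dark-grown hypocotyl is affected. Brassinosteroids such as 24-eBL act through the receptor kinase BRI1 and the BZR1/BES1 transcription factors, which share many growth targets with auxin. Because the mutations change protein stability and not necessarily transcript level, the transcript of the mutated gene does not check the labels.

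Genes with a large excess in both untreated mutants that also lay above wild type with 24-eBL were those for a GDSL-type lipase (AT5G14450), a FLZ-domain zinc finger protein (AT3G22550), a lipid transfer protein (AT5G01870), a rhodanese-domain protein (AT2G17850) and AT4G33560. With 24-eBL these 5 exceeded wild type by 4.70-fold to 9.0-fold in axr2 and 2.82-fold to 6.03-fold in msg2. The oleosin gene AT3G01570, AT1G24560 and AT3G52900 had untreated differences of like rank but with 24-eBL were dim on 1 or more arrays in at least 1 mutant and were not clear above wild type in axr2. Genes of ribosome synthesis, of protein synthesis and folding in organelles, and of RNA handling also stood among the 71. With 24-eBL the calmodulin-binding IQ-domain gene iqd32 and the splicing-factor gene AT1G28060 were among 16 genes in which neither mutant lay clear above wild type. Roles given for genes known only by a locus number are general knowledge and do not come from the files.

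Levels are log2 signals as deposited, given for replicate 1 and then replicate 2. A signal is called dim if it did not exceed the 40th percentile of the array it was read on, a limit that ran from 5.99 to 6.34. Where the lower group held a dim array the fold is given as at least the value reached with that array raised to the limit. Array medians ran from 6.91 to 7.18, and Pearson r between the replicates of a group was 0.968 to 0.979 over the 15025 tested probe sets. On WT_BR replicate 1 the members' median was 0.46 above the WT_mock mean, against 0.10 on WT_BR replicate 2, and replicate 1 was the higher in 118 of the 149. The GAPDH control probes, which compare the ends of that transcript and so track RNA integrity, gave a 3′ minus 5′ difference of 0.49 on WT_BR replicate 1, the highest of the 12 arrays, and -0.09 on WT_BR replicate 2. The actin control was highest on axr2_mock replicate 2 (2.43, against 1.47 on replicate 1) and the ubiquitin control on msg2_BR replicate 1 (0.49). Without WT_BR replicate 1 the rule gave 153 probe sets.

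**Figure D1:**
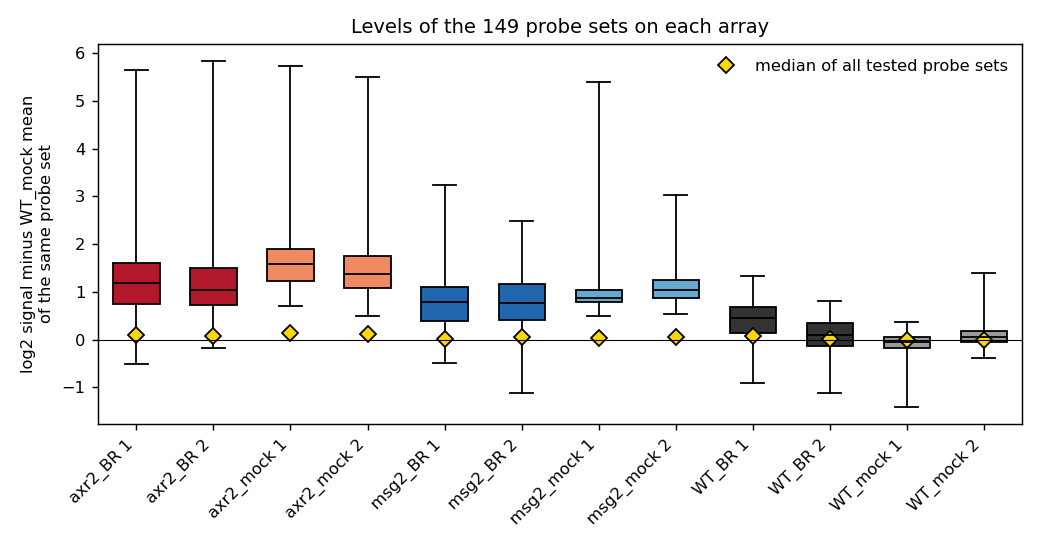
Log2 signal of the 149 probe sets on each of the 12 arrays, relative to the WT_mock mean of the same probe set. Boxes span the quartiles with the median as a line, whiskers run from the lowest to the highest member, and diamonds mark the median of all tested probe sets. Members' medians lay at 1.05 to 1.58 on the axr2 arrays, 0.76 to 1.05 on the msg2 arrays and -0.05 to 0.46 on the wild-type arrays.

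Without 24-eBL the members were higher in axr2 than in msg2, although the rule asked the same of both. These values chose the members and are given as a description. The median difference from WT_mock was 1.47 in axr2_mock (0.81 to 5.62), where the median over all tested probe sets was 0.13, and 0.95 in msg2_mock (0.80 to 4.22), where it was 0.05. In all 149 both mutants' arrays lay above both WT_mock arrays. Among all tested probe sets 40.3% lay clear above wild type in axr2_mock and 30.2% in msg2_mock. Between the mutants, axr2_mock lay clear above msg2_mock in 99 of the 149, where 34.2% of all tested probe sets did, and clear below it in 2, where 25% did. The array medians of axr2_mock averaged 0.22 above those of WT_mock. With every array centred on its median 90 of the 149 still passed the rule and no other probe set did. In 17 members at least 1 WT_mock array was dim, and in 5 single-gene members both were (AT3G01570, AT2G42710, AT3G05190, AT3G52900 and AT1G74250), whereas no array of either untreated mutant was dim.

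Many members sat close to the threshold, the smaller of their 2 differences being under 0.9 in 61. The members just inside it were AT1G54220, a pyruvate dehydrogenase subunit gene, at 0.802, AT5G06110, a DnaJ-domain chaperone gene, at 0.803 and AT1G71080 at 0.807. Just outside it were AT5G14460 at 0.797, AT1G64880 at 0.794 and AT1G54460 at 0.794.

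Growth with 24-eBL gave arrays of both mutants that the rule had not used. A probe set was called when its adjusted p from limma, fitted to all 12 arrays and adjusted over all 15025 tested probe sets by Benjamini-Hochberg, was under 0.05. WT_BR entered the rule through the limit on its distance from WT_mock, so the calls are counted on the 193 probe sets that pass without this limit. Of these 193, 105 were called higher and 1 lower in axr2_BR than in WT_BR, where 14.6% of all tested probe sets were called higher and 14% lower. In msg2_BR 63 of the 193 were called higher and 0 lower than WT_BR, where 4.06% of all tested probe sets were called higher and 3.45% lower. Without WT_BR replicate 1 these counts were 109 in axr2_BR and 52 in msg2_BR, and 522 probe sets in all were called between msg2_BR and WT_BR, against 1128 with it. The msg2 count was 39 without msg2_BR replicate 1 and 40 without WT_BR replicate 2. Among the 149 members, as a description, 84 were called higher and 0 lower in axr2_BR, and 50 higher and 0 lower in msg2_BR. The scarcity of lower calls depended in part on WT_BR replicate 2. Without it some of the 193 and of the 149 were called lower in each mutant. The msg2 arrays of members were nearer to wild type than the axr2 arrays, with a median of 0.79 for axr2_BR minus WT_BR (-0.68 to 5.85, against 0.02 over all tested) and 0.50 for msg2_BR minus WT_BR (-0.85 to 2.97, against -0.02).

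The members took 4 patterns with 24-eBL by whether both arrays of a mutant lay above both WT_BR arrays. WT_BR entered the rule through its limit, so the counts over the 149 are a description. In 80 of the 149 both mutants lay clear above WT_BR, a pattern that 17.2% of all tested probe sets had. In 31 axr2_BR did and msg2_BR did not (15.8% of all tested), in 5 msg2_BR did and axr2_BR did not (6.78%), and in 33 neither did (60.3%). Counted singly, axr2_BR lay clear above WT_BR in 111 members and clear below it in 2, against 33% and 30.1% of all tested probe sets. Likewise msg2_BR lay clear above it in 85 and clear below it in 8, against 23.9% and 25.6%. Of the 193 probe sets chosen without that limit, axr2_BR lay clear above WT_BR in 141 and clear below it in 5. For msg2_BR these counts were 110 and 10. Both mutants were called higher than WT_BR in 58 of the 193, where 3.42% of all tested probe sets were. Of the 71 single-gene members 37 had the first pattern, 15 the second, 3 the third and 16 the last. The 3 genes clear above wild type in msg2_BR and not in axr2_BR were AT4G01700, of the chitinase family, AT3G01570, an oleosin gene, and AT5G05180.

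**Figure D2:**
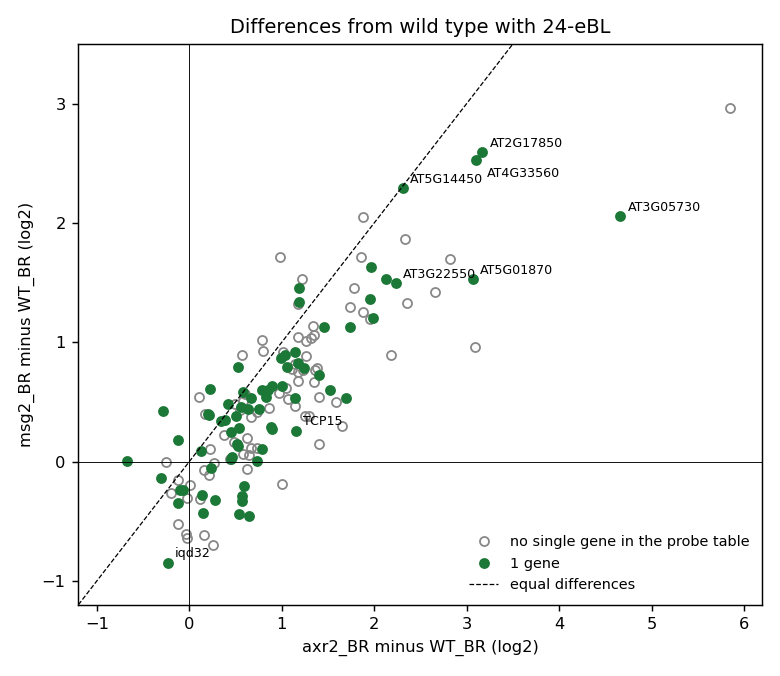
Difference from WT_BR in msg2_BR (vertical, log2) against the difference from WT_BR in axr2_BR (horizontal, log2) for the 149 probe sets, with filled points for those with 1 gene and a dashed line where the mutants would differ equally. Both axes share the WT_BR arrays. Most points lie right of 0 and above 0, AT3G05730 and AT5G01870 lie far to the right of the line, and iqd32 lies lowest.

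The comparison of axr2_BR with msg2_BR was the only one whose 4 arrays played no part in the choice of members. Of the 149, 28 were called higher in axr2_BR than in msg2_BR and 1 lower, where 5.73% of all tested probe sets were called higher and 7.07% lower. The members' median difference was 0.37, against 0.05 over all tested probe sets, and 96 members lay clear above msg2_BR (31.1% of all tested) and 7 clear below it (25.6%). The number called depended on single arrays: 14 to 19 of the 149 were called when any 1 of the 4 arrays compared was left out, and 16 without the intensity trend of the fit. Over all tested probe sets 861 were called higher and 1063 lower, a split that became 610 higher and 1367 lower with arrays centred on their medians, where 22 members were called higher and 1 lower. Among single-gene members 13 were called higher and 0 lower. The other 15 called higher, and the 1 called lower (by -0.73), had no single gene.

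The largest axr2_BR minus msg2_BR difference of the 149 was 2.88, in a probe set without a single gene. Among single-gene members the defensin-like gene AT3G05730, of a family of small secreted antimicrobial peptides, stood furthest apart. With 24-eBL it had signals of 11.11 and 11.58 in axr2, 8.58 and 8.90 in msg2 and 7.01 and 6.36 in wild type, so that the 3 genotypes did not overlap. It was 2.61 ± 0.28 (log2, SE, n = 2 each) higher in axr2_BR than in msg2_BR, a 6.09-fold difference (limma adjusted p = 4.04e-06). Without 24-eBL its order was the same, at 9.57 and 10.51 in axr2, 8.42 and 8.60 in msg2 and 7.26 and 7.68 in wild type. AT5G01870, for a lipid transfer protein of the kind that carries lipids outside the cell, had 11.54 and 11.37 in axr2_BR, 9.90 and 9.92 in msg2_BR and 8.57 and 8.21 in WT_BR. Here too the genotypes did not overlap, and the excess of axr2_BR over msg2_BR was 1.54 ± 0.21 or 2.92-fold (limma adjusted p = 8.37e-05). These were the only 2 of the 13 genes called under every alternative setting tried.

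TCP15, a TCP-family transcription factor that acts in cell proliferation and growth, had 10.81 and 10.57 in axr2_BR, 9.79 and 9.80 in msg2_BR and 9.24 and 9.84 in WT_BR. The axr2 arrays lay above all others and the msg2 arrays lay within the wild-type range, with axr2_BR 0.90 ± 0.20 above msg2_BR (limma adjusted p = 0.00551). AT5G55220, coding for a trigger-factor type protein, a chaperone that in bacteria meets the nascent chain at the ribosome, had 8.05 and 8.19 in axr2_BR, 6.91 and 7.01 in msg2_BR and 6.13 and 6.73 in WT_BR, the first dim. Both mutants lay above wild type and axr2_BR lay 1.16 ± 0.26 above msg2_BR (limma adjusted p = 0.00538). AT1G48570, with Ran-binding type zinc fingers, had 9.10 and 9.01 in axr2_BR, 8.27 and 7.99 in msg2_BR and 7.73 and 7.33 in WT_BR, again without overlap, and differed by 0.92 ± 0.20 between the mutants (limma adjusted p = 0.00446). Each of these calls was lost without 1 array: limma adjusted p was 0.0731 for TCP15 without axr2_BR replicate 1, 0.0511 for AT5G55220 without axr2_BR replicate 2 and 0.067 for AT1G48570 without msg2_BR replicate 2.

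In the CCCH zinc finger gene AT2G20280 and the cohesin-associated PDS5-type gene AT4G31880 the treated msg2 signal was near or below that of wild type. AT2G20280 had 8.33 and 7.92 in axr2_BR, 7.12 and 7.33 in msg2_BR and 7.86 and 7.26 in WT_BR. AT4G31880 had 7.23 and 7.48 in axr2_BR, 6.31 and 6.44 in msg2_BR and 7.19 and 6.45 in WT_BR. In both genes axr2_BR lay clear of both other groups, and no msg2_BR array reached the upper WT_BR array. The differences between the mutants were 0.90 ± 0.25 (limma adjusted p = 0.0215) and 0.98 ± 0.29 (limma adjusted p = 0.0309). They were lost without 3 of the 4 arrays compared for AT2G20280, with adjusted p up to 0.208, and without any of the 4 for AT4G31880, up to 0.168.

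Of the other 6 genes called between the treated mutants 5 lay 0.59 to 0.80 higher in axr2_BR. The transporter gene AT2G16660, of the major facilitator superfamily, had 9.0 and 8.96 in axr2_BR, 8.27 and 8.12 in msg2_BR and 6.85 and 7.13 in WT_BR, a difference of 0.78 ± 0.22 between the mutants (limma adjusted p = 0.0246). AT5G02580 differed by 0.59 ± 0.17 (limma adjusted p = 0.0243) and AT1G53645 by 0.60 ± 0.17 (limma adjusted p = 0.0269). In all 3 the genotypes stood in the order axr2, msg2, wild type without overlap. AT3G22550 (limma adjusted p = 0.0392) and the NOP53-type nucleolar gene AT2G40430 (0.0313) were also called. AT1G24560 was called too (limma adjusted p = 0.0471), but both its msg2_BR arrays were dim, so that axr2_BR was at least 1.59-fold higher. With dim values raised to the limit its difference was 0.67 and was not called (limma adjusted p = 0.0513). Every one of these 6 lost its call without at least 2 of the 12 arrays, and AT1G24560 without 10 of the 12, with adjusted p up to 0.231 for AT5G02580.

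**Figure D3:**
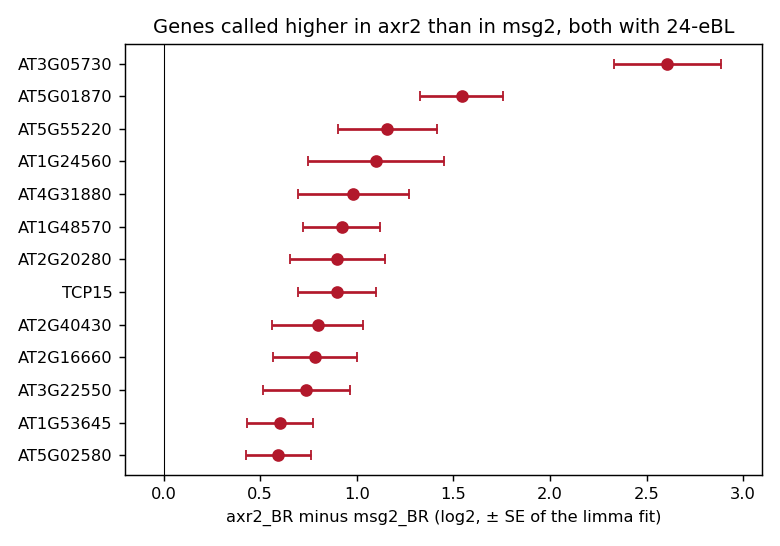
Log2 difference between axr2_BR and msg2_BR (point, with the SE of the limma fit as bars) for the 13 single-gene members called between these groups. All 13 lie right of 0, with AT3G05730 the furthest right at 2.61. AT1G24560 is drawn at its fitted value although both its msg2_BR arrays were dim.

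Of the 71 genes 42 were given a role, in 7 groups that were written after the members were known and so carry no test. Secreted, cell-wall, defence and cell-surface proteins held the largest treated axr2 difference of the 7 groups, 4.66 in AT3G05730. With 24-eBL axr2 lay clear above wild type in 5 of 7 and msg2 in 5 of 7, with median differences of 0.89 in axr2_BR and 0.61 in msg2_BR. Such counts, here and in the groups below, are to be read beside those of all 149 members. Among these, axr2_BR lay clear above WT_BR in 111 and msg2_BR in 85, against 33% and 23.9% of all tested probe sets. The GDSL-type lipase gene AT5G14450, of a family of secreted esterases, had 9.53 and 9.40 in axr2_mock, 8.68 and 9.65 in msg2_mock and 7.19 and 6.96 in WT_mock. In the presence of 24-eBL it had 9.59 and 8.95 in axr2, 9.25 and 9.27 in msg2 and 6.86 and 7.07 in wild type. All 8 mutant arrays lay at or above 8.68 and all 4 wild-type arrays at or below 7.19, and the treated mutants stood 4.95-fold (axr2) and 4.9-fold (msg2) above treated wild type.

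AT5G01870 without 24-eBL had 11.60 and 11.88 in axr2_mock, 9.16 and 9.63 in msg2_mock and 7.68 and 8.33 in WT_mock, which was 13.3-fold higher than wild type in axr2 and 2.62-fold in msg2. AT3G05730 with 24-eBL exceeded wild type 25.3-fold in axr2 and 4.15-fold in msg2. The chitinase-family gene AT4G01700, whose products cut chitin of fungal walls, had 8.45 and 8.03 in axr2_mock, 7.98 and 7.89 in msg2_mock and 6.76 and 6.74 in WT_mock. With 24-eBL it stood at 7.62 and 7.30 in axr2, where it overlapped wild type, at 7.76 and 7.93 in msg2, which did not overlap, and at 7.38 and 7.10 in wild type. The beta-glucosidase gene BGLU44 and the hydrolase gene AT2G24280 had smaller treated differences, of 0.89 and 0.39 in axr2 and 0.29 and 0.35 in msg2. AT4G25090, of the NADPH oxidase family that makes superoxide at the plasma membrane, lay clear of wild type in neither.

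In organelle protein synthesis and folding all 5 genes lay clear above treated wild type in both treated mutants, with medians of 1.0 in axr2_BR and 0.63 in msg2_BR. AT5G46580, for a pentatricopeptide repeat protein, a class that binds organelle RNA, had 8.20 and 8.93 in axr2_mock, 7.48 and 8.06 in msg2_mock and 6.68 and 6.56 in WT_mock. Its treated signals were 8.42 and 8.74 in axr2, 8.0 and 7.98 in msg2 and 6.81 and 6.45 in wild type, or 3.87-fold (axr2) and 2.57-fold (msg2) over wild type. Mutant and wild-type arrays did not overlap under either condition. AT2G42710, of the ribosomal protein L1 family, had 7.94 and 7.98 in axr2_mock, 7.23 and 7.40 in msg2_mock and 5.99 and 5.54 in WT_mock, both of these last dim, so that the untreated excess was at least 3.8-fold in axr2 and at least 2.43-fold in msg2. With 24-eBL it had 7.18 and 7.37 in axr2, 6.82 and 7.49 in msg2 and 6.43 and 6.14 in wild type, none of them dim and without overlap. The others were AT5G55220, the chaperonin gene Cpn60beta3, whose protein folds proteins in the chloroplast, and the YebC-related gene AT2G25830.

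Of 7 genes of ribosome synthesis and rRNA processing, axr2 lay clear above wild type in 6 with 24-eBL and msg2 in 3, with medians of 0.79 in axr2_BR and 0.40 in msg2_BR. AT1G80750, of the ribosomal protein L7 family, had 9.12 and 9.08 in axr2_BR, 8.63 and 8.65 in msg2_BR and 8.15 and 7.58 in WT_BR, and no group overlapped another. AT1G50920, for a nucleolar GTP-binding protein, and AT3G23620, for a Brix-domain protein of the kind that assembles ribosomal subunits, were likewise clear of wild type in both. IMP4, part of the U3 particle that processes pre-rRNA in yeast, had 8.65 and 8.60 in axr2_BR, 8.11 and 8.39 in msg2_BR and 8.21 and 8.0 in WT_BR, so that axr2 alone was clear above wild type. The same held for the EBP2-type gene AT3G22660 and for AT2G40430, in which msg2_BR lay clear below WT_BR, while AT5G35910, for an RRP6-type RNA exonuclease, overlapped wild type in both.

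Of 6 genes for tRNA work, translation initiation and cytosolic folding, axr2 was clear above wild type in 4 with 24-eBL and msg2 in 3 (medians 0.55 in axr2_BR and 0.26 in msg2_BR). The seryl-tRNA synthetase gene AT5G27470, the tRNA dihydrouridine synthase gene AT4G38890 and the eIF2A-type gene AT1G73180 were clear in both. AT4G38890 had the largest treated difference of the 6, with 8.66 and 8.63 in axr2_BR, 8.54 and 8.48 in msg2_BR and 8.17 and 7.06 in WT_BR, whose replicates were far apart. The DnaJ-domain gene AT1G74250 had 7.82 and 7.58 in axr2_mock, 7.10 and 7.08 in msg2_mock and 5.89 and 5.87 in WT_mock. Both wild-type arrays were dim, so the excess was at least 3.17-fold in axr2 and at least 2.08-fold in msg2. With 24-eBL it stood at 6.65 and 6.38 in axr2, 6.41 and 6.03 in msg2 and 6.60 and 5.95 in wild type. The 5.95 was dim, and all 3 genotypes overlapped, with several signals near the limit.

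**Figure D4:**
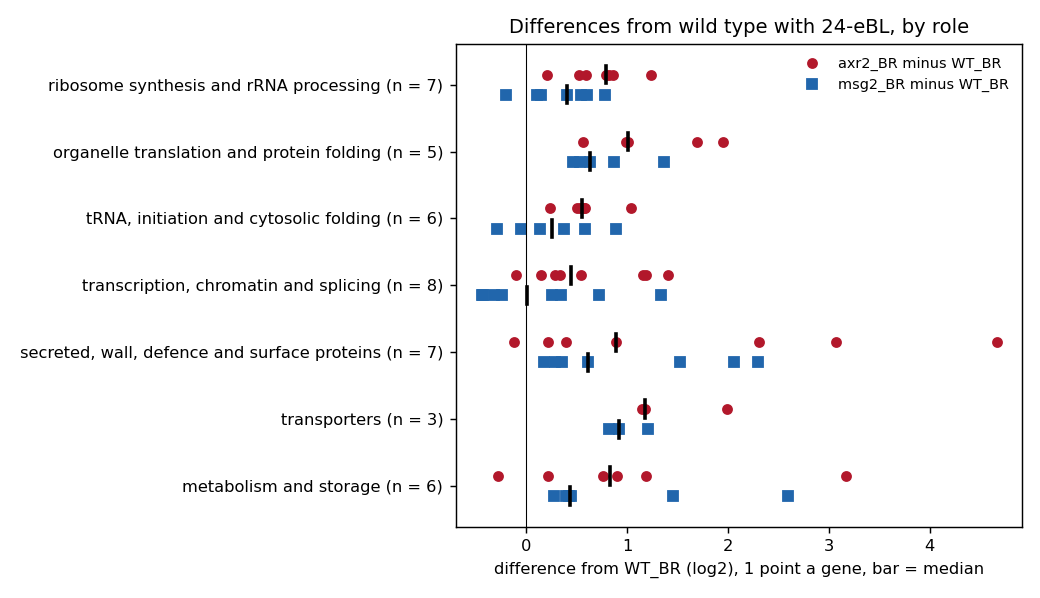
Log2 difference from WT_BR of each of the 42 genes with a role, by role group, with circles for axr2_BR, squares for msg2_BR and a bar at the median of each. All 5 organelle genes and all 3 transporter genes lie right of 0 in both mutants, while the transcription, chromatin and splicing genes spread to both sides of 0 in msg2_BR (median 0.01).

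The 8 genes of transcription, chromatin and splicing had the lowest treated msg2 median of the 7 groups. With 24-eBL axr2 lay clear above wild type in 5 and msg2 in 3, with medians of 0.44 in axr2_BR and 0.01 in msg2_BR. AT1G77200, for a transcription factor of the ERF/DREB class, had 10.37 and 9.89 in axr2_mock, 9.54 and 9.56 in msg2_mock and 8.26 and 8.02 in WT_mock. In the presence of 24-eBL it had 9.81 and 9.42 in axr2, 9.83 and 9.70 in msg2 and 8.19 and 8.67 in wild type. It stood 2.28-fold above wild type in axr2_BR and 2.52-fold in msg2_BR, the largest treated msg2 difference of the 8. AT3G10040, which codes for HRA1, a trihelix factor that tempers the hypoxia response, stood 2.64-fold above wild type in axr2_BR and 1.65-fold in msg2_BR, both clear of WT_BR.

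AT4G31880 without 24-eBL had 8.08 and 7.69 in axr2_mock, 7.42 and 7.67 in msg2_mock and 6.07 and 6.49 in WT_mock, of which the first wild-type array was dim. Set beside its treated values above, its msg2 signal was lower with 24-eBL on both arrays. AT3G23900, for an RNA-recognition-motif protein, had 7.71 and 6.93 in axr2_mock, 7.0 and 7.48 in msg2_mock and 5.92 and 6.21 in WT_mock, the first dim. Its treated signals were 6.82 and 6.91 in axr2, 7.04 and 6.70 in msg2 and 6.66 and 6.39 in wild type, clear of wild type by little. AT1G28060, which codes for the PRP3-type splicing factor RDM16, the PWI-domain splicing gene AT2G29210 and the elongation factor gene AT1G71080 were clear of WT_BR in neither mutant, with treated differences of -0.11 to 0.29 in axr2_BR and -0.43 to -0.24 in msg2_BR.

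All 3 transporter genes were clear above wild type in both treated mutants, with medians of 1.17 in axr2_BR and 0.91 in msg2_BR. AT2G16660 had 8.66 and 8.91 in axr2_mock, 7.94 and 8.33 in msg2_mock and 6.67 and 7.16 in WT_mock, and with 24-eBL it stood 3.97-fold above wild type in axr2 and 2.31-fold in msg2. The sugar transporter gene AT5G61520 stood 2.26-fold above wild type in axr2_BR and 1.77-fold in msg2_BR. The cation efflux gene AT3G58060 stood 2.21-fold above wild type in axr2_BR and 1.89-fold in msg2_BR.

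Of 6 genes of metabolism and storage, axr2 was clear above wild type in 4 with 24-eBL and msg2 in 5 (medians 0.83 in axr2_BR and 0.43 in msg2_BR). AT2G17850, with a rhodanese domain, which in other proteins transfers sulfur, had 11.19 and 11.27 in axr2_mock, 10 and 9.73 in msg2_mock and 8.40 and 8.71 in WT_mock. With 24-eBL it had 11.34 and 10.98 in axr2, 10.89 and 10.28 in msg2 and 7.65 and 8.34 in wild type, which was 9-fold (axr2) and 6.03-fold (msg2) over wild type. The treated differences exceeded the untreated ones of 6.38-fold in axr2 and 2.48-fold in msg2, and msg2_BR lay clear above msg2_mock. AT3G05190, for an aminotransferase-like enzyme, had 7.73 and 7.73 in axr2_mock, 6.56 and 7.68 in msg2_mock and 5.63 and 5.63 in WT_mock. In the presence of 24-eBL it had 7.33 and 6.98 in axr2, 7.25 and 7.62 in msg2 and 6.06 and 5.89 in wild type, at least 2.07-fold over wild type in axr2 and at least 2.5-fold in msg2. All 4 of its wild-type arrays were dim.

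The oleosin gene AT3G01570, of the proteins that coat oil bodies in seeds, led the 71 by the smaller of its differences in the mutants. It had 7.67 and 8.27 in axr2_mock, 8.09 and 6.79 in msg2_mock and 4.54 and 5.93 in WT_mock, both dim. Against the limit of the wild-type arrays the excess was at least 3.83-fold in axr2 and at least 2.65-fold in msg2, whose replicates were far apart. With 24-eBL the signals were 5.40 and 5.82 in axr2, both dim, 6.30 and 6.33 in msg2, and 5.95 and 5.83 in wild type, both dim, so that msg2 lay clear above wild type and axr2 clear below it, among signals near or under the limit. The succinate dehydrogenase subunit gene SDH1-1 and the pyruvate dehydrogenase subunit gene AT1G54220, both of mitochondrial carbon oxidation or its supply, were clear of wild type in both treated mutants, by 0.76 and 0.90 in axr2_BR and 0.44 and 0.27 in msg2_BR. AAE16, of the acyl-activating enzymes, overlapped wild type in both.

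**Figure D5:**
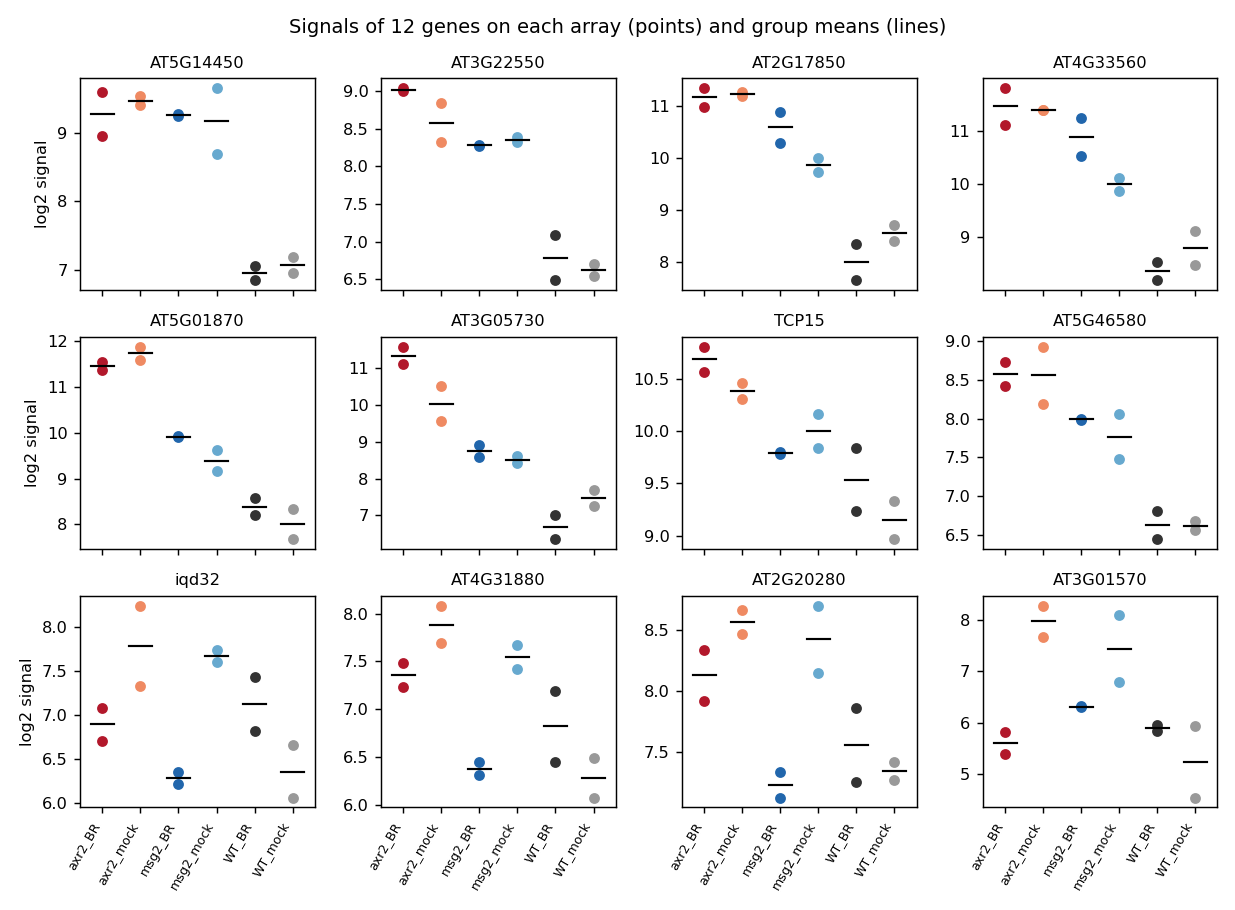
Log2 signal of 12 genes on each array (points) with group means (lines), each panel with its own vertical scale. In the top row and in AT5G01870, AT3G05730 and AT5G46580 no mutant array overlaps a wild-type array with the same treatment, whereas in iqd32 axr2_BR overlaps WT_BR and msg2_BR lies below it, and in AT3G01570 no treated array exceeds 6.33.

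Among members without a group, AT3G22550, whose FLZ domain belongs to a plant family of regulatory zinc finger proteins, had 8.84 and 8.32 in axr2_mock, 8.32 and 8.39 in msg2_mock and 6.54 and 6.71 in WT_mock. Its treated signals were 9.0 and 9.04 in axr2, 8.28 and 8.27 in msg2 and 7.08 and 6.49 in wild type. Mutants and wild type did not overlap under either condition. AT4G33560 had 11.41 and 11.40 in axr2_mock, 9.87 and 10.12 in msg2_mock and 8.47 and 9.12 in WT_mock, and with 24-eBL 11.81 and 11.12 in axr2, 11.24 and 10.54 in msg2 and 8.19 and 8.54 in wild type. Its treated excess was 8.59-fold in axr2 and 5.75-fold in msg2, and as in AT2G17850 msg2_BR lay clear above msg2_mock. AT1G53645 had 10.38 and 10.15 in axr2_mock, 9.5 and 9.71 in msg2_mock and 8.40 and 8.53 in WT_mock, with no overlap between genotypes.

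In iqd32, AT1G24560, AT3G52900 and AT5G48240 the untreated excess was not matched with 24-eBL. The IQ-domain gene iqd32 had 8.25 and 7.33 in axr2_mock, 7.60 and 7.74 in msg2_mock and 6.06 and 6.66 in WT_mock, of which the first wild-type array was dim. With 24-eBL it had 6.71 and 7.08 in axr2, 6.35 and 6.21 in msg2 and 7.43 and 6.82 in wild type, so msg2 lay below both wild-type arrays, with a difference of -0.85, the lowest treated msg2 value of the 149. AT1G24560 had 7.57 and 7.37 in axr2_mock, 7.54 and 7.38 in msg2_mock and 5.94 and 6.06 in WT_mock, of which the first wild-type array was dim. In the presence of 24-eBL it had 6.60 and 6.86 in axr2, 5.55 and 5.71 in msg2, both dim, and 6.67 and 5.50 in wild type, the second dim. Both mutants overlapped wild type there.

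AT3G52900 had 7.43 and 7.11 in axr2_mock, 7.50 and 6.98 in msg2_mock and 5.98 and 5.92 in WT_mock, both dim, and with 24-eBL 1 array of each genotype was dim and the genotypes overlapped. AT5G48240 had 8.14 and 7.96 in axr2_mock, 7.32 and 7.14 in msg2_mock and 6.26 and 5.76 in WT_mock, the second dim. Its treated signals were 7.24 and 7.15 in axr2, clear above wild type, 6.75 and 6.80 in msg2 and 6.76 and 6.71 in wild type. As a description, 0 pairs of the 71 genes lay within 3 genes of each other in the gene order of assembly TAIR10.1. No like count was made for other genes.

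With 24-eBL most members were lower within each mutant and higher within wild type than without it. The mock arrays of the mutants chose the members by their high values and those of wild type by their low values. A fall within the mutants and a rise within wild type are thus in part given by the choice. The rule also limited the wild-type response, so these values are a description. The members' median above the WT_mock mean was 0.46 on WT_BR replicate 1 and 0.10 on replicate 2. The median response was -0.37 in axr2 (11 of 149 clear above axr2_mock and 85 clear below, where 18.9% and 25.2% of all tested probe sets were) and -0.21 in msg2 (21 above and 66 below, where 23.2% and 25.7% were). In wild type it was 0.29 (56 above and 8 below, where 25.2% and 20.6% were). Among members with large untreated differences, AT2G17850 responded by -0.07 in axr2, 0.72 in msg2 and -0.56 in wild type, and AT4G33560 by 0.07 in axr2, 0.90 in msg2 and -0.43 in wild type. The response of iqd32 was -0.89 in axr2, -1.39 in msg2 and 0.77 in wild type. In all 3, chosen after their values were seen, the msg2 and wild-type values had opposite signs.

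Of the hormone, light, seed-reserve and organ-marker lists 33 genes had a single-gene probe set, of which 22 were tested and 0 were members. Only 149 of all 15025 tested probe sets were members, so 0 among 22 does not set these lists apart. The 77 members without a gene could not be looked up in the lists, and the ARF, brassinosteroid, other hormone, root tip, root hair, xylem and etiolated-tissue lists had 0. Of the 11 tested auxin genes (Aux/IAA, transport, synthesis and conjugation, and SAUR lists), 1 was called higher and 3 lower in axr2_mock than in WT_mock, where 20.5% and 15% of all tested probe sets were. The higher gene was the SAUR-type gene AT3G53250 (2.03), and the lower were WAG2 (-1.90), a kinase gene of auxin transport, WES1 (-0.64), of the GH3 family that conjugates auxin, and the SAUR-type gene AT2G18010 (-3.31). In msg2_mock 3 were called higher and 1 lower than in WT_mock, where 2.12% and 2% of all were, and 2 higher and 3 lower with arrays centred on their medians. These were IAA29 (1.75), which the rule for members leaves out, the GH3 family genes GH3.3 (1.12) and GH3.17 (0.66), and AT2G18010 (-3.18). With 24-eBL 1 was called higher and 5 lower in axr2_BR than in WT_BR (14.6% and 14% of all tested probe sets), and 1 higher and 1 lower in msg2_BR than in WT_BR (4.06% and 3.45%). WES1 was lower in both (-1.78 in axr2_BR and -1.34 in msg2_BR). GH3.17 was higher in msg2_BR (0.57), and AT3G53250 was higher in axr2_BR (1.99), where IAA20 (-0.46), WAG2 (-1.62), AT1G43040 (-2.57) and AT2G18010 (-2.48) were lower. Between the treated mutants 1 was called higher in axr2_BR, AT3G53250 (2.13), and 3 lower, WAG2 (-1.10), GH3.17 (-0.59) and AT1G43040 (-1.59), where 5.73% and 7.07% of all tested probe sets were called higher and lower. In each called comparison of AT2G18010, AT1G43040, AT3G53250 and IAA29 the lower group held at least 1 dim array. The sizes of their differences are therefore uncertain. AT2G18010, for example, had 4.67 and 3.45 in axr2_mock and 3.27 and 5.11 in msg2_mock, all dim. These lists were small and the msg2 counts ran from 0 to 6 under the alternatives for untreated and from 1 to 5 for treated seedlings. The light and dark growth list had 2 of 4 genes called higher, PORB (0.41) and LHCB4.2 (0.97), and 0 lower in axr2_BR than in msg2_BR, and the seed reserve list had 0 of 6 higher and 1 lower, LEA18 (-1.27), against the same shares over all tested probe sets. LEA18 was dim on axr2_BR replicate 2 (4.77). The organ-marker lists had 1 tested probe set, matched by gene name alone, as FDH. Whether it reads the epidermal gene of that name was not checked, so it is not taken as an organ marker. It was called lower in axr2_BR than in msg2_BR (-0.54) and than in WT_BR (-0.77), and in axr2_mock than in WT_mock (-0.56). Whether a changed make-up of the seedlings had a part in the members' values was not tested.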

How the data were processed

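The deposited values were log2 signals of 12 ATH1 arrays. The authors normalised them with the MAS 5.0 algorithm and GeneSpring 11.0, per the design text and the submitters' processing notes. The trimmed mean signal was 500.05 to 500.06 on every array, so the arrays were not scaled again. On each array 139 to 436 probe sets held 0. Of 22810 probe sets 64 controls were left out, and the platform table used paired 13513 of the rest with 1 gene, 503 with several and 8730 with none. Symbols were updated to TAIR10.1 by gene ID for 13436, by locus for 48, and 29 were kept.

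Testing needed a signal over the array's 40th percentile on 2 or more of the 12 arrays, which kept 15025 probe sets, 8150 of them with 1 gene. One mean per group was fitted in limma 3.58.1 (R 4.3.3) with eBayes and an intensity trend, leaving 6 residual and 12 prior degrees of freedom. Called means an adjusted p under 0.05 by Benjamini-Hochberg within a comparison. The script was tested on simulated data. No array-level batch was recorded in the labels used, and precision is limited by 2 arrays per group.

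Same-numbered replicates did not deviate together (r from -0.08 to 0.07 over 15 pairs of groups), so numbers were not used as a block. Members, gene lists and role groups were chosen with earlier results of these data known. Given full values were the 20 single-gene members with the largest smaller difference, up to 10 called members a direction between axr2_BR and msg2_BR, and 3 on either side of the threshold. Further genes, including the 3 others of the 13 called, were named after their values were seen. Sequences were not used here, and the planned promoter search and product-word groups were not made.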

Additional observations from a re-analysis of the deposited data

Results flagged for a closer look

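In 5 single-gene members the response to 24-eBL ran in opposite directions in the mutants, both treated arrays lying on one side of both mock arrays in axr2 and on the other side in msg2. They were 7.04% of the 71 single-gene members. Of all 149 members 10 (6.71%) had the same pattern, and 6.51% of all tested probe sets had it. The members' share was thus near that of all tested probe sets. The difference between the responses was not tested, because the mock arrays of both mutants had chosen the members. TCP15 responded by 0.30 in axr2 and -0.21 in msg2, a difference of 0.52 (axr2 minus msg2). AT3G22550 responded by 0.44 in axr2 and -0.08 in msg2, which also differed by 0.52. The lipid transfer protein gene AT5G01870 responded by -0.28 in axr2 and 0.52 in msg2, a difference of -0.80. The ERF/DREB-class gene AT1G77200 responded by -0.51 in axr2 and 0.22 in msg2, a difference of -0.73. AT4G24110 responded by -0.61 in axr2 and 0.50 in msg2, a difference of -1.11.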

How the results depend on the processing

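The number of probe sets passing the rule depended on its settings. It was 275 with a threshold of 0.7, 55 with a threshold of 1.0, 688 with no floor on the mutant means, 92 with a floor of 8, and 90 with arrays centred on their medians. Leaving out 1 of the 8 arrays it used gave 122 to 231, the highest without WT_mock replicate 2 (111 shared with the 149) and next 229 without msg2_mock replicate 1 (131 shared). The cause was not tested.

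Leaving out 1 of the 12 arrays gave 1034 to 2155 probe sets called between axr2_BR and msg2_BR, 369 to 1296 between msg2_BR and WT_BR, and 2820 to 4564 between axr2_BR and WT_BR. Of the 149 members 14 to 32 were then called between axr2_BR and msg2_BR. Of the 193 probe sets chosen without the limit on WT_BR 85 to 109 were called higher in axr2_BR and 39 to 66 in msg2_BR than in WT_BR. Without the intensity trend 16 members were called between the treated mutants, and 502 probe sets between msg2_BR and WT_BR. At an adjusted p under 0.10, 44 members were called between the treated mutants. The differences between axr2_BR and msg2_BR of the 13 genes called kept their sign under the alternatives run, and other differences of single genes were not recomputed.

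A replicate block gave 27 of 149 members called between axr2_BR and msg2_BR, 107 and 60 of the 193 called higher in axr2_BR and msg2_BR than in WT_BR, and 1818 calls between axr2_BR and msg2_BR over all tested probe sets. Under the block AT1G24560 lost its call (limma adjusted p = 0.053) and the other 12 genes kept theirs. The counts of auxin genes and of the 149 members called against WT_BR were recomputed under alternatives added after the data had been seen. The members called higher were then 67 to 98 in axr2_BR and 30 to 59 in msg2_BR. The smallest difference called among the 13 genes was 0.59, with 2 arrays per group.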
